A study of Homo sapiens with 4 samples.

Results

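The microRNAs (miRNAs) described here come from 3 precursor genes. MIR221 and MIR222 form a cluster, and MIR210 stands alone. Each precursor yields a mature miRNA from its 5′ arm and another from its 3′ arm, so the set holds 6 mature miRNAs: hsa-miR-221-3p, hsa-miR-221-5p, hsa-miR-222-3p, hsa-miR-222-5p, hsa-miR-210-3p and hsa-miR-210-5p, written without the species prefix from here on. They were chosen by name as stress, growth and hypoxia responsive miRNAs, and all 6 were found among the 2656 mature miRNAs of the table. They were counted by small RNA-seq in cortical interneurons differentiated from 1 human embryonic stem cell line, H1. The exposed cultures were kept in neuronal maturation medium with ethanol at around 50 to 100 mM for 7 days, and the unexposed cultures spent 7 days in that medium without ethanol. Each group was run in duplicate (n = 2), and cells were collected after a further day without ethanol.

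miR-221-3p and miR-222-3p are the abundant arms of their cluster. They are known for lowering the cell cycle inhibitor CDKN1B and the receptor KIT, and in many tissues they accompany growth and proliferation. miR-210-3p is the classic miRNA of low oxygen. Its gene is switched on by hypoxia-inducible factor, and its targets include ISCU, which helps assemble the iron-sulfur clusters of mitochondrial enzymes. The other arm of each precursor is usually discarded during processing, so its level is normally far lower.

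In GENCODE 29 on GRCh38, MIR221 lies on the minus strand of chromosome X from 45746157 to 45746266 and MIR222 from 45747015 to 45747124, with 748 bases between them. Both sit in introns of MIR222HG, a long noncoding RNA gene, on its strand. MIR210 lies on the minus strand of chromosome 11 from 568089 to 568198, inside an intron of another long noncoding RNA gene, MIR210HG. The submitters' processing notes name a different build, hg19. The count table carries no coordinates, and the annotation behind the authors' counts is not known.

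The mature sequences are shown because they set which members share targets. The seed, bases 2 to 8 from the 5′ end, is in capitals, and the sequences are from RefSeq on GRCh38.p14.
miR-221-3p: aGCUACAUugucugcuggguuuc
miR-222-3p: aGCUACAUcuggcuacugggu
miR-222-5p: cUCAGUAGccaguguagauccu
miR-210-3p: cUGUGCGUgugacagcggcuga
miR-210-5p: aGCCCCUGcccaccgcacacug

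miR-221-3p and miR-222-3p carried the same seed. Their first 8 bases were identical, and of the 21 positions compared from the 5′ end without gaps, 11 were the same. A comparison without gaps misses likeness that is shifted along the sequence, so it does not show how alike the remaining bases are. Among the 2367 mature miRNAs of the table with a RefSeq sequence, no other carried that seed. The seeds of miR-222-5p, miR-210-3p and miR-210-5p were each found in that miRNA only.

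The hairpins below show where the arms lie in each precursor, with the mature sequences that RefSeq holds in capitals. The sequence of miR-221-5p is not printed here.
MIR221: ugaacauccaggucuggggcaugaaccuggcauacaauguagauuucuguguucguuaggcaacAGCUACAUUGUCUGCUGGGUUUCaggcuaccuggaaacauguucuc
MIR222: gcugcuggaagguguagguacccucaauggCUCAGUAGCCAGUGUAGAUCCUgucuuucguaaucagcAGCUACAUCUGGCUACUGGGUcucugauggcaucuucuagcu
MIR210: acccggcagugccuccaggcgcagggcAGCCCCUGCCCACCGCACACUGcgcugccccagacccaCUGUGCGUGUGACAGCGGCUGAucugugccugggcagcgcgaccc

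Total counts were 22223060 and 24858230 with ethanol and 13941795 and 12100425 without, and depth and exposure cannot be told apart. Levels are given as CPM, counts rescaled to a common library total, after scaling by TMM, edgeR's trimmed mean of M-values. Of 6 neuronal marker miRNAs, miR-9-5p had a mean of 190793 CPM over the 4 libraries, miR-128-3p 43755 CPM and miR-129-5p 5875 CPM. The rest were lower, with miR-124-3p at 3476 CPM, miR-137-3p at 75.4 CPM and miR-138-5p at 55.4 CPM. The marker lists name neurons in general and hold nothing particular to interneurons. In bulk cultures, fewer cells of a type and less RNA per cell cannot be told apart. Nothing in the labels says whether the duplicates were separately differentiated, so the tests measure the spread between these samples, which may be technical.

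None of the 6 miRNAs differed between exposed and unexposed interneurons beyond the spread between cultures. Each passed the filter on low counts, and 0 of 6 had an unadjusted P under 0.05 in edgeR's quasi-likelihood test, against 4.52% of the 863 miRNAs tested. With a fold change over 2 as well, 0 of 6 passed, against 2.32%. After Benjamini-Hochberg adjustment 0 of 6 and 0% of all tested miRNAs passed 0.05. All 6 log2 fold changes were below 0, with a median of -0.27, where the median over all tested miRNAs was -0.010 and 51.2% were below 0. With 1 library left out, the sign was negative for 3 of the 6 without exposed replicate 1, for all 6 without exposed replicate 2, for 5 without unexposed replicate 1 and for 4 without unexposed replicate 2.

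**Figure D1:**
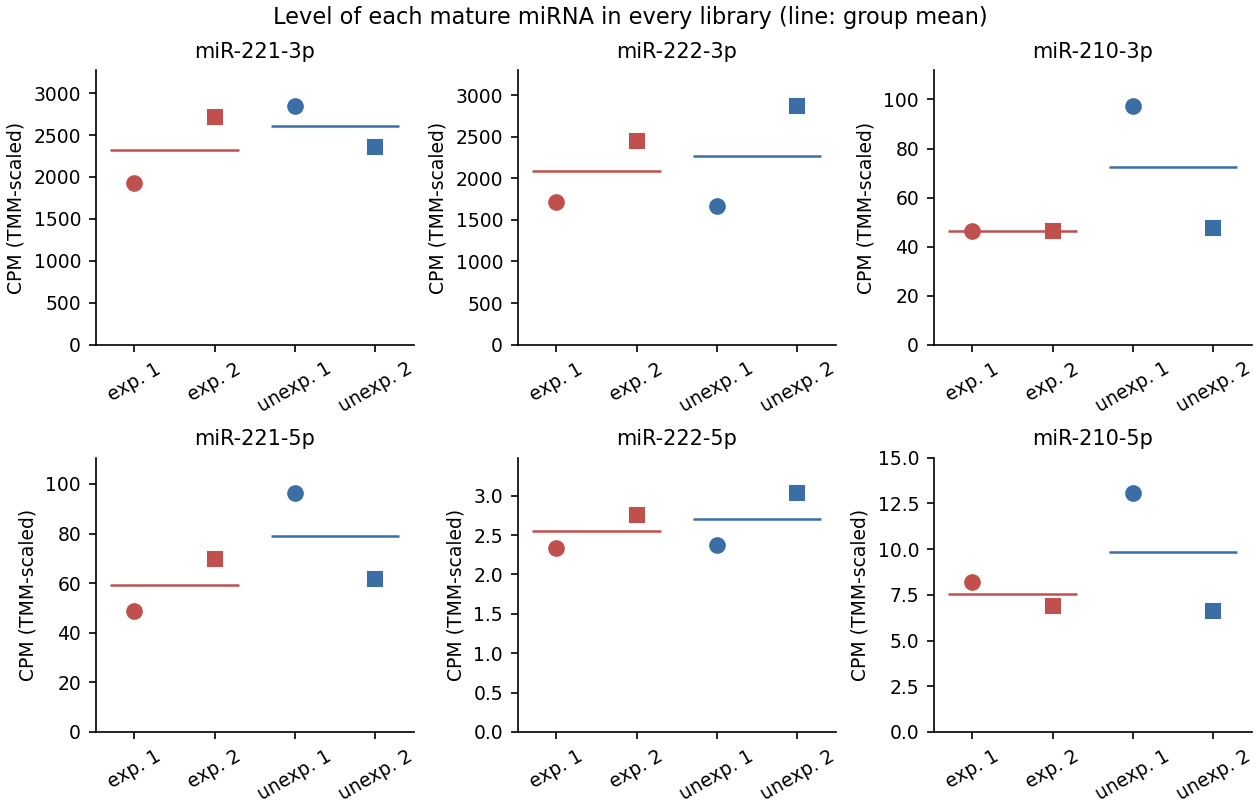
TMM-scaled CPM of each of the 6 mature miRNAs (vertical axis, from 0) in the 4 libraries (horizontal axis), with exposed cultures in red, unexposed in blue, circles for replicate 1, squares for replicate 2 and a line at each group mean. Unexposed replicate 1 stands highest for miR-210-3p (97.3 CPM), miR-210-5p (13.1 CPM), miR-221-5p (96.2 CPM) and miR-221-3p (2846 CPM) and lowest for miR-222-3p (1670 CPM).

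miR-221-3p, the seed-sharing partner encoded by MIR221, was the most abundant of the set. It had 48578 and 66151 counts with ethanol and 33571 and 30374 without, and ranked between 39 and 47 among all mature miRNAs of a library. Scaled, its level was 1926 and 2717 CPM in exposed, and 2846 and 2360 CPM in unexposed cultures. The groups overlapped, with exposed replicate 2 above unexposed replicate 2. The means were 2322 ± 559 CPM (SD, n = 2) and 2603 ± 343 CPM (SD, n = 2). The log2 fold change of miR-221-3p was -0.17 (standard error 0.25, 95% interval -0.75 to 0.42), with an unadjusted P of 0.531 and an adjusted p of 0.968 in edgeR. A two-sided exact permutation test gave 0.667, and with duplicates it cannot give less than 0.333.

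miR-222-3p, from the neighbouring precursor, was nearly as abundant. It had 43388 and 59717 counts with ethanol and 19696 and 36919 without. Its scaled level was 1720 and 2453 CPM in exposed, and 1670 and 2869 CPM in unexposed cultures. Here the unexposed cultures were the lowest and the highest of the 4 and enclosed both exposed ones. The means were 2087 ± 518 CPM (SD, n = 2) and 2269 ± 848 CPM (SD, n = 2). The log2 fold change of miR-222-3p was -0.12 (standard error 0.31, 95% interval -0.85 to 0.60), with an unadjusted P of 0.709 and an adjusted p of 0.983 in edgeR, and an exact permutation p of 1. It was 0.29 without unexposed replicate 2 and -0.47 without unexposed replicate 1.

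Since a target reads the seed, the counts of miR-221-3p and miR-222-3p were also summed. The pair took 0.414% and 0.506% of the counts with ethanol and 0.382% and 0.556% without, and made up between 95.6% and 97.8% of the counts of all 6 miRNAs. Scaled, the sum was 4409 ± 1078 CPM (SD, n = 2) with ethanol and 4872 ± 505 CPM (SD, n = 2) without. The groups overlapped, and the difference of -0.16 in log2 CPM gave an exact permutation p of 0.667.

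miR-221-5p, the minor arm of MIR221, had 1233 and 1702 counts with ethanol and 1135 and 795 without. Its level was 48.9 and 69.9 CPM in exposed, and 96.2 and 61.8 CPM in unexposed cultures. Unexposed replicate 1 was above the rest, while unexposed replicate 2 lay between the exposed cultures. The log2 fold change of miR-221-5p was -0.41 (standard error 0.31, 95% interval -1.12 to 0.30), with an unadjusted P of 0.217 and an adjusted p of 0.922 in edgeR, and an exact permutation p of 0.667. It was -0.065 without unexposed replicate 1. Without unexposed replicate 2 it was -0.73, with an unadjusted P of 0.0119 and an adjusted p of 0.196 in edgeR. That fit takes its spread from the exposed cultures, and 11.4% of the 954 miRNAs tested in it had an unadjusted P under 0.05.

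miR-222-5p, the minor arm of MIR222, was the rarest of the set. It had 59 and 67 counts with ethanol and 28 and 39 without, above the 3 counts taken as the smallest number that can be told from 0. Before scaling, the 28 counts are a share of 2.01 CPM with a 95% Wilson interval of 1.39 to 2.90, and without molecular identifiers such intervals and floors cover counting error only. The scaled levels were 2.34 and 2.75 CPM in exposed, and 2.37 and 3.03 CPM in unexposed cultures. The groups overlapped, and the log2 fold change of miR-222-5p was -0.089 (standard error 0.32, 95% interval -0.83 to 0.65), with an unadjusted P of 0.787 and an adjusted p of 0.983 in edgeR, and an exact permutation p of 0.667. Its sign turned positive, to 0.039, when TMM gave way to library size only.

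miR-210-3p, the hypoxia miRNA, had the most negative log2 fold change of the set. It had 1166 and 1127 counts with ethanol and 1148 and 613 without. Its scaled level was 46.2 and 46.3 CPM in exposed, and 97.3 and 47.6 CPM in unexposed cultures. The exposed cultures were nearly equal, and of the unexposed cultures replicate 2 lay just above them while replicate 1 was far higher. The means were 46.3 ± 0.0443 CPM (SD, n = 2) and 72.5 ± 35.1 CPM (SD, n = 2).

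The log2 fold change of miR-210-3p was -0.65 (standard error 0.35, 95% interval -1.45 to 0.15), a level 1.57-fold lower in exposed cultures. The unadjusted P was 0.0987 and the adjusted p 0.922 in edgeR, and the exact permutation test gave 0.333. It was the only member whose groups did not overlap, which held for 33.4% of all tested miRNAs, and before TMM scaling its groups overlapped too. The value rested on 1 culture. It was -0.048 on the log2 scale without unexposed replicate 1 and -1.11 without unexposed replicate 2. In the latter fit the lone unexposed culture is assumed to vary like the exposed ones. With at least 1 count in any library as the only filter it was -0.63, with an unadjusted P of 0.0414 and an adjusted p of 0.910.

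miR-210-5p, the other arm of MIR210, had 207 and 168 counts with ethanol and 154 and 85 without. Its level was 8.21 and 6.90 CPM in exposed, and 13.1 and 6.61 CPM in unexposed cultures. As for miR-210-3p, unexposed replicate 1 was the highest, but unexposed replicate 2 was the lowest of the 4, so the groups overlapped. The log2 fold change of miR-210-5p was -0.38 (standard error 0.37, 95% interval -1.24 to 0.48), with an unadjusted P of 0.341 and an adjusted p of 0.937 in edgeR, and an exact permutation p of 1. Without unexposed replicate 1 it was 0.19. Without unexposed replicate 2, with the spread again taken from the exposed cultures, it was -0.83 with an unadjusted P of 0.0139 and an adjusted p of 0.208 in edgeR.

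**Figure D2:**
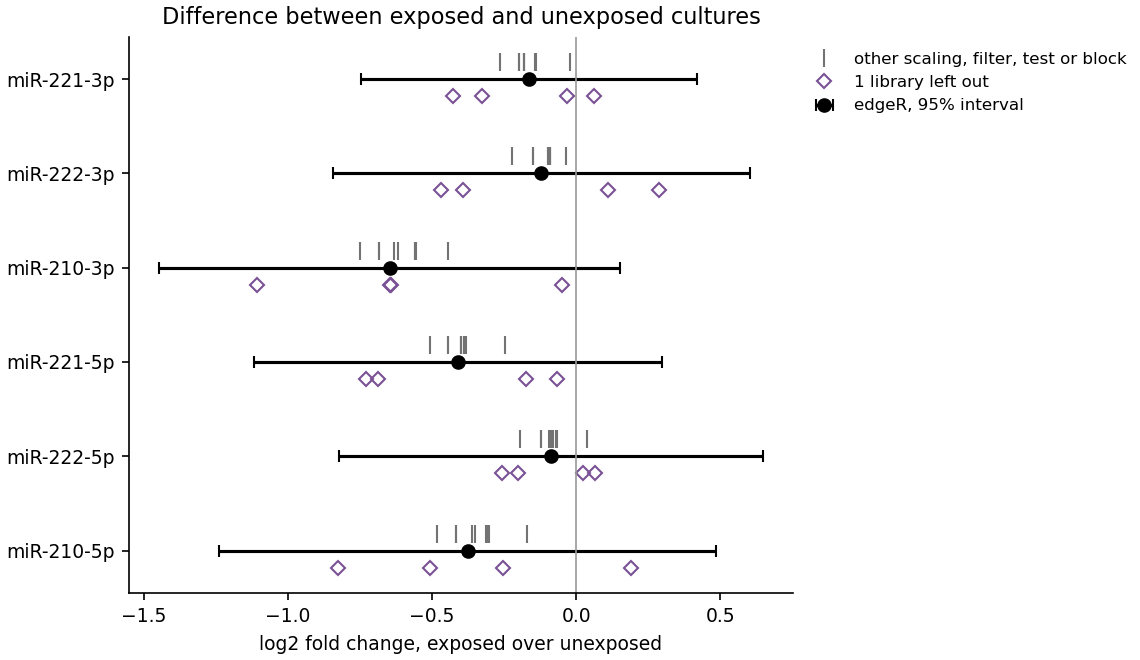
Log2 fold change of exposed over unexposed cultures (horizontal axis) for each miRNA (vertical axis), with edgeR's estimate and 95% interval in black, the values under other scaling, filters, tests and blocks as grey ticks, and the values with 1 library left out as open diamonds. Every interval includes 0, and for miR-210-3p the diamonds run from -1.11 to -0.048.

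The spread between duplicates varied among these miRNAs. miR-210-3p differed 2.04-fold between the unexposed cultures and 1.00-fold between the exposed ones. For miR-210-5p these folds were 1.98 and 1.19, and for miR-222-3p 1.72 and 1.43. miR-221-3p went the other way, with 1.21-fold between the unexposed and 1.41-fold between the exposed cultures. Among all tested miRNAs, 87.3% differed less than miR-210-3p between the unexposed cultures, and 0.232% differed less between the exposed ones. For miR-210-5p these shares were 86.2% and 45.3%, for miR-222-3p 79.0% and 77.2%, for miR-221-5p 70.6% and 78.1%, for miR-222-5p 43.0% and 42.9%, and for miR-221-3p 34.2% and 75.9%.

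**Figure D3:**
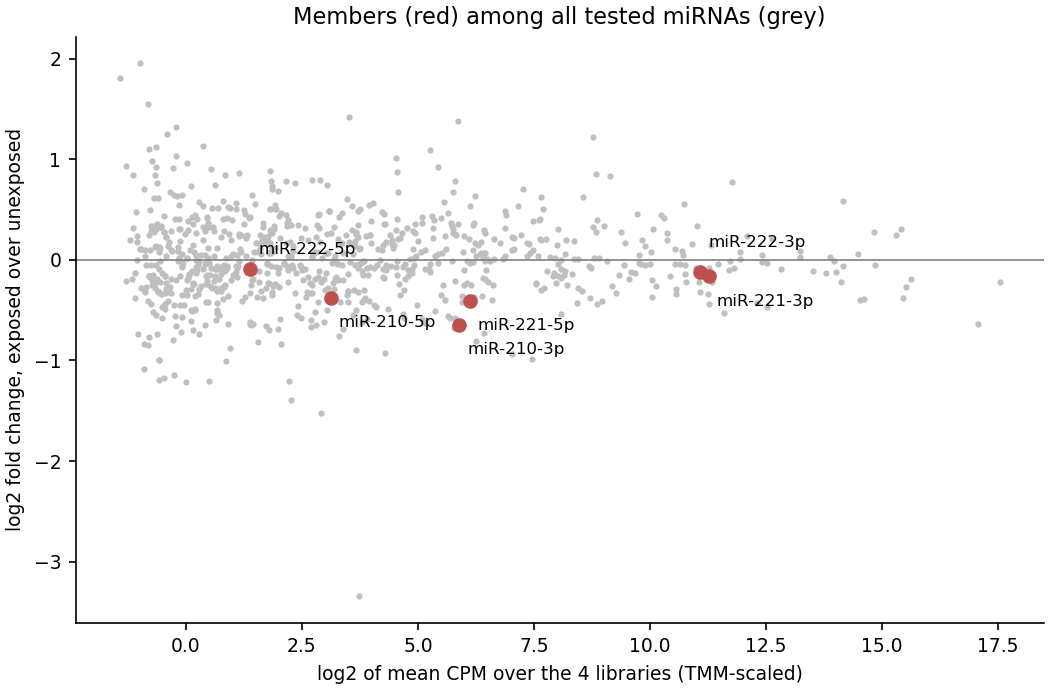
Log2 fold change (vertical axis) against the log2 of the mean CPM over the 4 libraries (horizontal axis) for the 863 tested miRNAs in grey, with the 6 members in red. The members run from 2.62 to 2462 mean CPM and all lie below 0, the lowest being miR-210-3p at -0.65.

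Ratios of counts within a library need neither depth nor scaling. The question here was whether miRNAs from 1 precursor, or from 1 cluster, kept their proportions. The ratio of miR-221-3p to miR-222-3p was 1.12 and 1.11 in the exposed libraries, while it was 1.70 and 0.823 in the unexposed libraries. miR-221-3p thus supplied 52.8% and 52.6% of the pair in the exposed cultures, 63.0% in unexposed replicate 1 and 45.1% in unexposed replicate 2 (95% Wilson intervals of 52.5 to 53.1% in exposed replicate 1, and 62.6 to 63.4% and 44.8 to 45.5% in the unexposed libraries). The exposed libraries agreed closely and the unexposed ones lay on either side of them, so the means did not separate: the difference in the log2 ratio was -0.089, with an exact permutation p of 1. Whether the spread itself differed between the groups was not tested.

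The arms of each precursor kept more even proportions. For MIR222, miR-222-3p outnumbered miR-222-5p 735-fold and 891-fold with ethanol and 703-fold and 947-fold without. That unevenness was stronger than in 97.6% of 123 other precursors. These had both arms in RefSeq, each arm from 1 precursor only, and at least 10 counts of each in every library. Precursors with a rarer arm were left out, which can remove the most uneven ones, so the share holds only among those kept. For MIR221 the ratio of 3p to 5p counts was 39.4 and 38.9 with ethanol and 29.6 and 38.2 without. For MIR210 it was 5.63 and 6.71 with ethanol and 7.45 and 7.21 without. The log2 range over the 4 libraries was 0.43 for MIR222, 0.41 for MIR221 and 0.40 for MIR210, against a median of 0.70 over the precursors compared. That comparison did not match depth, and an arm could have as few as 10 counts in a library, where counting error widens the range.

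Between the groups, the mean log2 ratio of the arms differed by 0.22 for MIR221, -0.011 for MIR222 and -0.25 for MIR210. The exact permutation p was 0.333, 1 and 0.333, and 0.5, 1 and 0.5 after Benjamini-Hochberg adjustment over the 3 precursors. The groups did not overlap for MIR221 and MIR210, which held for 28.8% of 125 precursors, MIR221 included. Of the exposed libraries, replicate 2 came closest to the unexposed values for MIR210, and for MIR221 the ratio of 38.2 in unexposed replicate 2 lay just under the exposed values of 39.4 and 38.9.

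**Figure D4:**
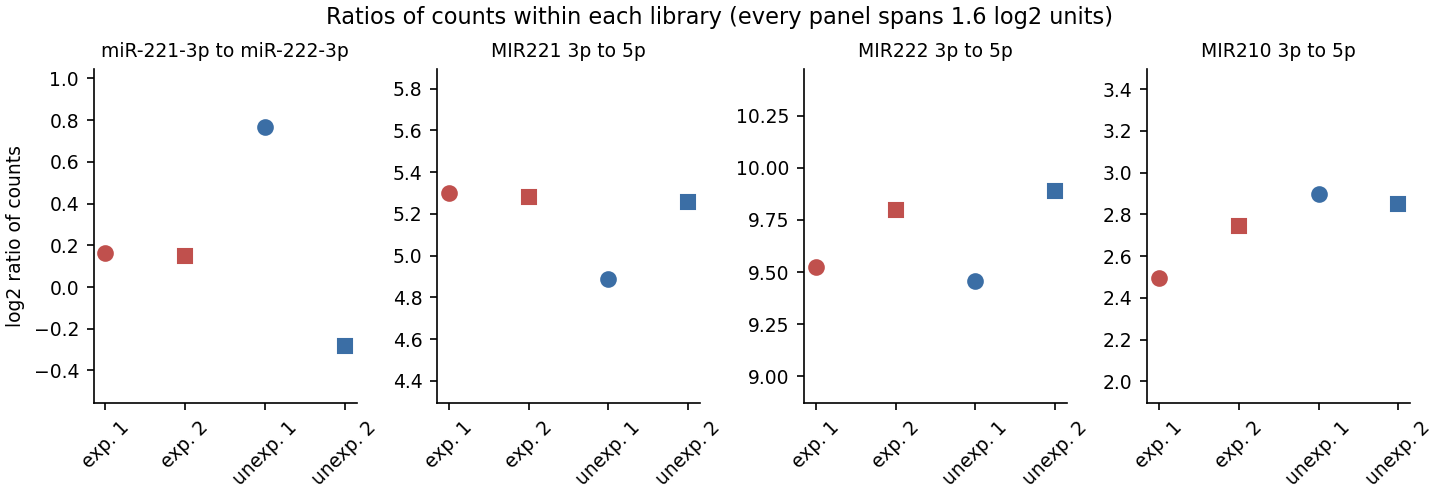
Log2 ratio of counts within each library (vertical axis, 1.6 log2 units in every panel) for miR-221-3p to miR-222-3p and for the 3p to the 5p arm of MIR221, MIR222 and MIR210, with exposed libraries in red and unexposed in blue. The ratio of miR-221-3p to miR-222-3p runs from -0.28 to 0.77 in the unexposed libraries and is 0.16 and 0.15 in the exposed ones.

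Other miRNAs described as hypoxia responsive were read for comparison from a list of 27, of which 24 passed the filter. Of these, 1 had an unadjusted P under 0.05 in edgeR, beside the 4.52% of all tested miRNAs. It was miR-20b-5p, a relative of miR-17, at 45.7 and 64.5 CPM in exposed, and 83.2 and 110 CPM in unexposed cultures. The log2 fold change of miR-20b-5p was -0.81 (standard error 0.28), with an unadjusted P of 0.0197 and an adjusted p of 0.922 in edgeR. The median log2 fold change of the 24 was -0.16, and 20 of them had a value below 0, beside 51.2% of all tested miRNAs. The list gives no direction of response for each miRNA, so neither figure can be read as more or less of a response to low oxygen. With library size only, 12 of the 24 were below 0, beside 34.2% of all tested miRNAs, and the median of the list was -0.0078 where that of all tested miRNAs was 0.14. Relative to the median of all tested miRNAs, the list's median was -0.15 under either scaling. Without unexposed replicate 2 the list's median was -0.38.

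The 3 most abundant of the list did not differ beyond the spread between cultures. On the log2 scale the fold change was -0.20 for miR-26a-5p, 0.27 for miR-125b-5p and -0.39 for miR-103a-3p, with standard errors of 0.27, 0.33 and 0.39. miR-373-3p, which low oxygen induces in some cell types, had 0 counts in every library, which allows up to 0.121 to 0.248 CPM.

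Markers of other cell types were read from fixed lists, because miR-221 and miR-222 are also made by endothelial, mesenchymal and glial cells. The endothelial miRNAs miR-126-3p and miR-126-5p summed to 1021 and 927 CPM in exposed, and 894 and 807 CPM in unexposed cultures. They are arms of the same precursor, so not separate markers, with means of 905 and 7.27 CPM over the 4 libraries. Both were higher in exposed cultures without overlap of the groups, and 33.4% of all tested miRNAs had no overlap in either direction. Neither endothelial miRNA passed an unadjusted P of 0.05 in edgeR. The 5 mesenchymal markers summed to between 90.5 and 119 CPM in the exposed and between 116 and 121 CPM in the unexposed cultures. Their means were 71.0 CPM for miR-143-3p, 26.4 for miR-199a-3p, 13.2 for miR-199b-3p, 0.947 for miR-214-3p and 0.246 for miR-145-5p. The counts of miR-199a-3p and miR-199b-3p kept nearly the same proportion in every library (726 and 363, 567 and 283, 373 and 187, 281 and 140). These may therefore not be separate measurements. The 3 oligodendrocyte markers summed to between 75.7 and 95.8 CPM in the exposed and between 76.0 and 116 CPM in the unexposed cultures. Nearly all of that was miR-219a-2-3p, with a mean of 87.5 CPM over the 4 libraries. The mean was 2.80 CPM for miR-338-3p and 0.434 CPM for miR-219a-5p, which had 3 to 17 counts per library. None of the 4 mesenchymal and 2 oligodendrocyte markers tested had an unadjusted P under 0.05 in edgeR.

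The 5 blood markers summed to between 0.389 and 0.986 CPM, and miR-142-3p and miR-223-3p had 0 counts throughout. The 8 pluripotency markers summed to between 2.42 and 3.89 CPM, with miR-367-3p, miR-371a-3p and miR-373-3p at 0 counts in every library. Of the 6 neuronal markers, 1 had an unadjusted P under 0.05 in edgeR, beside the 4.52% of all tested miRNAs. It was miR-124-3p, which is enriched in neurons, at 5405 and 3362 CPM in exposed, and 2947 and 2190 CPM in unexposed cultures. Its log2 fold change was 0.77 (standard error 0.30), with an unadjusted P of 0.0316 and an adjusted p of 0.922 in edgeR. Of the 6 neuronal markers, 4 had a log2 fold change above 0 and 2 below 0, where 51.2% of all tested miRNAs were below 0. The part of these cell types in the levels of the 6 miRNAs was not tested.

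By the root mean square difference of centred log2 CPM over the 4 libraries, among 372 other miRNAs of at least 10 CPM, the pattern closest to miR-221-3p was that of miR-95-3p (0.042), followed by miR-628-5p and miR-335-5p. Closest to miR-221-5p were let-7i-5p (0.021), miR-576-3p and let-7g-5p. Closest to miR-222-3p were miR-219a-2-3p (0.088), miR-1912-3p and miR-382-5p, and closest to miR-210-3p were miR-3065-5p (0.15), miR-19b-3p and miR-548ay-5p. The partner miR-222-3p was at 0.37 from miR-221-3p, and 248 of the 372 were closer. Taken from miR-222-3p, 137 of the 372 were closer than miR-221-3p. With 4 libraries these likenesses are a description only.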

How the data were processed

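The 6 miRNAs, the lists and the tests were chosen with earlier results of these data known. The authors made the libraries with a NEBNext small RNA kit and ran CAP-miRseq on the reads. The values they deposited are raw read counts of each mature miRNA, without normalization. The submitters' processing notes name hg19. The annotation release and the handling of reads that match several miRNAs are not given in the sources used here. Groups and replicate numbers came from the sample labels.

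From the counts, edgeR 4.0.16 in R 4.3.3 was used across all miRNAs: filterByExpr (minimum count 10, minimum total 15), TMM factors (0.846 to 1.13), the quasi-likelihood test without covariates and Benjamini-Hochberg adjustment. Standard errors were taken from the F statistic. The log2 CPM used in permutation tests had 0.5 added to each count. The fold change of 2 and P of 0.05 are thresholds the study uses. The fit was tested on simulated data. Also run were DESeq2 1.42.0, limma-voom (limma 3.58.1), other scaling and filters, the replicate block and leaving out each library.

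Named by rule were the 6 members, miRNAs of their seeds, the 3 most abundant of each list and the 3 nearest patterns for members of at least 10 CPM. miR-20b-5p, miR-124-3p, miR-373-3p and markers at 0 counts were named after their values were seen.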

Additional observations from a re-analysis of the deposited data

How the results depend on the processing

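Over the 9 alternatives that kept all libraries, 52 of 54 log2 fold changes of the 6 miRNAs had the same direction and the same side of an unadjusted P of 0.05 as reported. The exceptions were miR-222-5p with library size only (0.039) and miR-210-3p with at least 1 count in any library (-0.63, unadjusted P 0.0414 in edgeR), where 1 member and 94 of 1825 miRNAs (5.15%) passed that P, against 0 and 39 of 863 (4.52%). Over these alternatives the unadjusted P of miR-210-3p ran from 0.0414 to 0.234 and its log2 fold change from -0.75 to -0.44. Library size only moved the median of all tested miRNAs to 0.14 and upper quartile scaling to -0.12. Relative to these medians all 6 stayed below 0, between -0.59 and -0.11 and between -0.63 and -0.075. The hypoxia list's median was -0.0078 with library size only. With 1 library left out, the log2 fold changes ranged from -0.43 to 0.062 for miR-221-3p, -0.73 to -0.065 for miR-221-5p, -0.47 to 0.29 for miR-222-3p, -0.26 to 0.065 for miR-222-5p, -1.11 to -0.048 for miR-210-3p and -0.83 to 0.19 for miR-210-5p, members passing from 0 to 3 (3 without unexposed replicate 2), all miRNAs passing from 12 (without exposed replicate 1) to 109 (without unexposed replicate 2), and the hypoxia list's median from -0.38 to -0.096. The difference in the log2 ratio of miR-221-3p to miR-222-3p ranged from -0.61 to 0.44, and those of the arms from 0.035 to 0.40 for MIR221, -0.23 to 0.20 for MIR222 and -0.38 to -0.13 for MIR210. The causes were not tested. Same-numbered libraries did not deviate together (correlation -0.19 across 863 miRNAs). With the replicate block 25 miRNAs passed, 0 of them members. Because of that correlation a crossed replicate block was added after seeing the data, and 59 passed under it, 0 of them members. Among the members, counting error weighs most on miR-222-5p, with 28 to 67 counts per library.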

Other observations

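The uneven proportions of miR-221-3p and miR-222-3p in the unexposed libraries were set beside those of other neighbouring precursors, a comparison chosen after the values were seen. Neighbours were precursors on 1 strand within 10 kb of each other. Each was represented by its more abundant arm among mature miRNAs that come from 1 precursor only, with a mean of at least 100 CPM. An arm encoded by several precursors was thus left out, and the less abundant arm could stand in for it. This gave 13 pairs. The log2 ratio of miR-221-3p to miR-222-3p differed by 1.05 between the unexposed libraries, and 0 of the 12 other pairs differed more there, with a median of 0.54 over the 13 pairs. Over all 4 libraries the range of its log2 ratio was 1.05, and 1 of the 12 other pairs had a larger one, miR-27a-3p and miR-23a-3p with 1.13. Between the exposed libraries it differed by 0.015, and 1 of the other pairs differed less. The nearest case in the unexposed libraries was the pair of miR-27a-3p and miR-23a-3p, of the miR-23a cluster, which differed by 1.02 there and by 0.60 in the exposed libraries. Its homologous pair of miR-23b-3p and miR-27b-3p differed by 0.62 and 0.37. Members of a pair come from precursors close enough to share a primary transcript, though the files do not show whether they did. The cause of these differences was not tested.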
